A study of Mus musculus with 3 samples.

Results

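Scavenger receptors are surface and endosomal proteins with which macrophages bind and take up modified lipoproteins, dying cells, microbes and spent plasma proteins. The 10 genes described here were taken by symbol from the 55536 genes of the deposited tables. No filter on their values was used, but earlier results of these data were known when they were chosen. They are Msr1, Marco and Colec12 of class A, Cd36 and Scarb1 of class B, Cd68 of class D, Olr1 of class E, Stab1 of class H, Cd163 of class I and Lrp1 of class L. The libraries held RNA from the cytosolic fraction of C57BL/6J mouse macrophages that had been grown from bone marrow and treated for 25 min with lipid A at 100 ng/ml. Lipid A is the membrane anchor of bacterial lipopolysaccharide and acts through TLR4. The 3 libraries, biological replicates 1 to 3 of a single group, were depleted of ribosomal RNA and made from 1 µg of RNA each. All 3 carry the same donor record, and the labels do not say whether separate animals or cultures were used, so their spread may be partly technical. No sample without lipid A was analysed here, so the values are levels in stimulated cells and not responses.

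The classes differ in build and cargo. Class A receptors have a collagen-like stalk, and their ligands include modified lipoprotein and bacteria. Class B receptors are double-pass proteins for fatty acids, oxidized lipoprotein and high-density lipoprotein. The others range from a lysosomal glycoprotein (Cd68) to very large endocytic receptors (Lrp1, Stab1). In macrophages several of these genes give rise to receptor forms that differ at the cytoplasmic or ligand-binding end, so both the gene level and its division among transcripts matter for which receptor a cell can make.

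For 2 genes the transcripts differ in short coding exons, which are shown here because their use is measured further on. Sequences are in the direction of the transcript and were read from the GENCODE M21 transcripts, with mm10 coordinates. Scarb1-201 encodes the form known as SR-BI in 509 codons, and its tail comes from an exon at chr5:125281105-125281233, minus strand, that Scarb1-202 lacks. Capitals mark its stop codon. Scarb1-202, 506 codons long and known as SR-BII, reads another tail from the next exon, whose first 30 coding bases at chr5:125277836-125277865 are given after it.

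Scarb1-201 exon: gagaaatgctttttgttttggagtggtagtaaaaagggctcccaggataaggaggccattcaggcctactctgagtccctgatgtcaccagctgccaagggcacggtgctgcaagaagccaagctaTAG

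Scarb1-202 tail: ggtcctgaagacactataagccccccaaac

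Msr1-201 encodes the type I receptor (458 codons), which ends in a scavenger receptor cysteine-rich domain, and Msr1-202 the type II receptor (354 codons), which lacks it. The coding parts of the 2 exons found in Msr1-201 and absent from Msr1-202 lie on the minus strand at chr8:39589290-39589478 and chr8:39581735-39581865. Capitals mark the whole cysteine codons, of which the first part holds 2 and the second 4.

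Msr1-201 coding part 1: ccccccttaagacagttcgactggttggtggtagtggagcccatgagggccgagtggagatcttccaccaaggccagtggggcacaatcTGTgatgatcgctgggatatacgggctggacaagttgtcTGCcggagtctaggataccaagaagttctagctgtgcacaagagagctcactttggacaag

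Msr1-201 coding part 2: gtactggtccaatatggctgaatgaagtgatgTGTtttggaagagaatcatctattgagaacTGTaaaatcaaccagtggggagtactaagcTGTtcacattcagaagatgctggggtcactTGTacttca

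Promoter windows, from 250 bases before to 50 bases after the RefSeq start, were found for 7 of the 10 genes in the RefSeq table (GRCm38.p6). Those of Cd68 (chr11:69666121-69666420, minus strand) and Marco (chr1:120504975-120505274, minus strand) are shown as examples of a gene near the top and a gene near the bottom of the level range that hold the same motif. Capitals mark GAGGAA or its reverse complement TTCCTC, the core bound by PU.1, the macrophage lineage factor encoded by Spi1.

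Cd68 promoter: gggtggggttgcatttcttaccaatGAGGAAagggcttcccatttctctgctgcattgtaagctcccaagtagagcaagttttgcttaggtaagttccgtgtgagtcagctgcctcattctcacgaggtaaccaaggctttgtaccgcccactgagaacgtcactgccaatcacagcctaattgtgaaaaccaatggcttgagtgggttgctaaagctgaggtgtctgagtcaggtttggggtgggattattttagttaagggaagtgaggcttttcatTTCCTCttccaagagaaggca

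Marco promoter: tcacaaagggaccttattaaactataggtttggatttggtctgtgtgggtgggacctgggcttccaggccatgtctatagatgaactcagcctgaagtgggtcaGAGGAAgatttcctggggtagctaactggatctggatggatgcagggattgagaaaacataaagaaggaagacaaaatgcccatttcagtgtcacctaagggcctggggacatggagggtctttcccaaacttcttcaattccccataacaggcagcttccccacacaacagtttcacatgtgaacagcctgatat

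GAGGAA was found on either strand in 4 of the 7 windows (Cd68, Marco, Stab1 and Olr1) and in 28.28% of 32851 windows of the same length in that table. The Cd36 window (chr5:17835847-17836146) lies by the proximal start region of that gene. It does not cover the distal region, which is described further on and took the larger share of Cd36 TPM. TGACTCA, the site of AP-1 factors, was found in the windows of Cd68 and Olr1 and in 5.202% of all windows. TATAAA, a core promoter element, was in none of the 7 and in 13.62% of all. These matches are letters in a window, and binding was not measured.

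Replicates 1, 2 and 3 had 53055764, 43620362 and 38623777 expected counts, and 3 counts stood for 0.0565, 0.0688 and 0.0777 CPM, a count divided by the library total. The share of TPM on protein-coding nuclear genes was 22.7, 22.9 and 29.8%, so TPM values of replicate 3 run higher for many such genes. TPM, the deposited unit, is scaled by transcript length and library and is the unit in which levels are compared between genes. As a check of the labelled cell type, 9 of 10 macrophage markers reached 1 TPM in every library, with a summed level of 5673, 5791 and 8792 TPM. Cx3cr1 was the exception, at 0.10 to 0.12 TPM. Markers of T cells summed to at most 0.06 TPM, those of stromal cells to at most 0.10 TPM, and all 4 adipocyte markers had 0 counts. Neutrophil markers summed to 26.0, 43.7 and 30.1 TPM, nearly all of it S100a8 and S100a9, with 4 of 6 below 1 TPM. Markers of endothelial cells, which also use Cd36, Scarb1 and Stab1, summed to 7.81, 11.0 and 14.3 TPM. Most of it was Stab2, itself a scavenger receptor, with 4.66, 8.33 and 10.1 TPM, and Kdr, with 2.75, 2.26 and 3.46 TPM. The other 4 of 6, Pecam1 and Cdh5 included, stayed below 1 TPM. Erythroid markers reached at most 0.11 TPM, mast cell markers 0.98, dendritic cell markers 0.96 and B cell markers 1.16 TPM in sum. Osteoclast markers summed to 49.6, 79.7 and 62.3 TPM, mostly Atp6v0d2, and platelet markers to 146, 202 and 207 TPM, nearly all Pf4. In bulk RNA of this kind, fewer cells of a type and less RNA per cell cannot be told apart.

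Of the 10 scavenger receptor genes, 7 had at least 1 TPM in every library, against 41.3% of the 22015 protein-coding nuclear genes. The other 3, Cd163, Marco and Olr1, stayed below 1 TPM in every library. Together the 10 genes took 0.482, 0.633 and 0.441% of the counts of replicates 1, 2 and 3, and Cd68, Lrp1, Stab1 and Cd36 held between 93.5 and 94.9% of them. The levels spanned the range from a gene ranked 29 by mean TPM among the protein-coding nuclear genes (Cd68) to one ranked 11848 (Olr1).

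**Figure D1:**
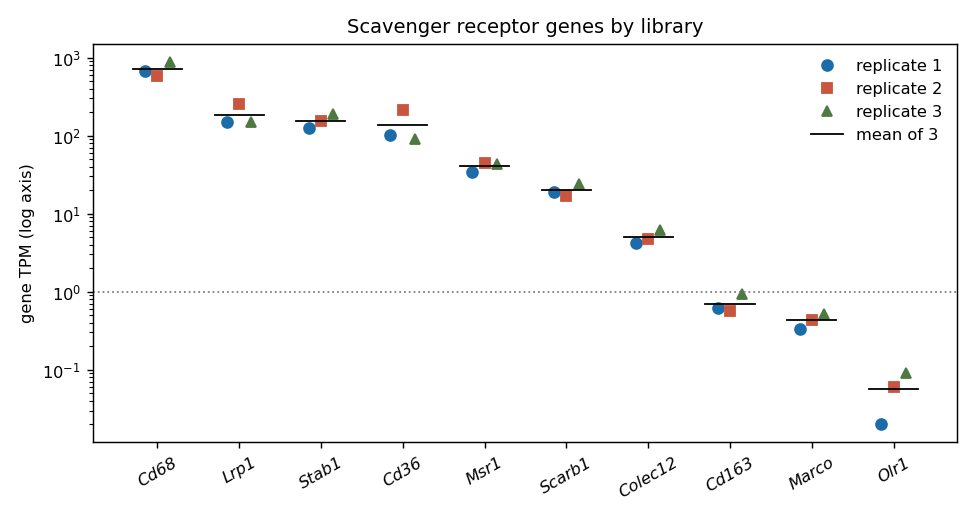
Gene TPM (log axis) of the 10 scavenger receptor genes in each of the 3 libraries, ordered by mean; horizontal bars are means of 3 and the dotted line is 1 TPM. Cd68 lay above 590 TPM in every library and Olr1 below 0.1 TPM, and the points of Lrp1, Stab1 and Cd36 interleave.

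Among the class A receptors, Msr1 was the only one of the 3 above 10 TPM. Msr1 (chr8:39581685-39642673, minus strand), the prototype receptor for acetylated lipoprotein, had 33.8, 44.5 and 43.0 TPM in replicates 1 to 3, a mean of 40.4 ± 5.77 (SD, n = 3) from 6318 to 9330 counts. Colec12 (chr18:9707595-9882644, plus strand), a collectin-like receptor best known from endothelium and placenta, had 4.25, 4.70 and 6.16 TPM. Its 1316 to 1676 counts per library make it well measured, and its scaled counts hardly differed between libraries.
Marco (chr1:120474538-120505024, minus strand), a receptor for unopsonized particles and bacteria that is high in alveolar and marginal zone macrophages, had 0.33, 0.44 and 0.52 TPM. That rested on 51, 61 and 53 counts, well over the limit of 3 but few. The 3 class A genes did not overlap one another in any library.

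The class B receptors were both detected, Cd36 above Scarb1 in all 3 libraries. Cd36 (chr5:17781690-17888801, minus strand), a fatty acid translocase and receptor for oxidized lipoprotein, had 101, 216 and 91.6 TPM, with a mean of 136 ± 69.4 (SD, n = 3). Replicate 2 stood at more than double the other libraries in this unit. Rescaled to protein-coding nuclear genes, the libraries came to 446, 946 and 308 TPM, and in the alignment-free tables to 55.3, 72.9 and 23.9 TPM, so replicates 1 and 3 differed more on those scales than in the deposited gene TPM. Scarb1 (chr5:125277087-125341094, minus strand), the receptor for high-density lipoprotein, had 18.9, 17.1 and 23.9 TPM, and here replicate 2 was the lowest.

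Of the remaining receptors, Cd68 was the highest of all 10 genes. Cd68 (chr11:69664213-69666153, minus strand), the lysosomal glycoprotein macrosialin used as a macrophage marker, had 682, 591 and 878 TPM. Its mean of 717 ± 147 TPM (SD, n = 3) placed 99.9% of protein-coding nuclear genes below it. Rescaled to protein-coding nuclear genes alone, the 3 libraries came to 3008, 2585 and 2950 TPM, so on that scale replicate 3 was not the highest.
Lrp1 (chr10:127538161-127621148, minus strand), a large endocytic receptor for apolipoprotein E and alpha-2-macroglobulin, had 150.2, 257 and 151 TPM. Replicate 2 stood above the other libraries in this unit, but not in alignment-free TPM, where Lrp1 had 42.5, 41.7 and 19.6 TPM. By alignment-free counts replicate 2 was again the highest. These were 110358, 141552 and 70698, from library totals of 63478438, 59579391 and 49413640. By counts Lrp1 was the largest of the 10, with 104274, 133103 and 64643, since its main transcript is 14888 bases long.
Stab1 (chr14:31139013-31168641, minus strand), a receptor for acetylated lipoprotein and extracellular matrix proteins such as SPARC, had 126, 153 and 187 TPM. It shares 112 bases with Nt5dc2 on the opposite strand, and no source used here says whether the counting used strand, so reads of that stretch could belong to either gene. Cd36, Msr1, Marco, Cd68, Cd163 and Olr1 overlap no other annotated gene. By alignment-based counts, the antisense gene within Lrp1 had at most 7 in a library. The gene within Scarb1 had at most 12 and each of those within Colec12 at most 4. By alignment-free counts these maxima were 30, 21.5 and 17.0.

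Cd163 (chr6:124304656-124330527, plus strand), the receptor for haptoglobin-haemoglobin complexes, had 0.62, 0.56 and 0.93 TPM from 249, 183 and 220 counts. In the alignment-free tables, made from the reads without a genome alignment, the same gene had 890, 635 and 755 estimated counts, 3.50 times as many over the 3 libraries. Across 9922 protein-coding nuclear genes with at least 100 counts on average, the median of this ratio was 1.09, and only 3 genes exceeded that of Cd163. An alignment-free count over 1.5-fold above the alignment-based one was found for 1 of the 8 receptor genes at this depth, against 0.796% of all genes. The reason for the excess was not tested, and the level of Cd163 is uncertain by that factor. Under both tables it was below 1 TPM in every library. However, 1 TPM is not the same cut in both, as Cd68 averaged 717 TPM in one and 215 TPM in the other. The alignment-free values therefore do not settle whether Cd163 is below detection.
Olr1 (chr6:129485244-129507165, minus strand), the lectin-like receptor for oxidized lipoprotein first known from endothelium, had 0.02, 0.06 and 0.09 TPM. These rested on 8, 17 and 18 counts.

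In the order by mean TPM, Cd68, Lrp1, Stab1, Cd36, Msr1, Scarb1, Colec12, Cd163, Marco and Olr1, most neighbours were separated in every library. Lrp1 was above Stab1 in 2 of 3 libraries and Stab1 above Cd36 in 2 of 3, and the ranges of these neighbours overlapped, so the order within this trio is not resolved. The ratio of means was 3.85 between Cd68 and Lrp1, 3.37 between Cd36 and Msr1, 2.03 between Msr1 and Scarb1, 3.96 between Scarb1 and Colec12 and 7.16 between Colec12 and Cd163. The smallest ratio between neighbours whose ranges did not overlap was 1.64, between Cd163 and Marco, a step that was wider in the alignment-free tables. The step from Colec12 to Cd163 was narrower there, with 2.01, 1.31 and 1.35 TPM for Colec12 and 0.877, 0.464 and 0.606 TPM for Cd163. Without replicate 2, Stab1 stood above Lrp1.

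The alignment-free tables gave a lower mean TPM for 9 of the 10 genes, Olr1 being the exception. Cd68 averaged 215 ± 80.0 TPM there, Cd36 50.7 ± 24.8, Lrp1 34.6 ± 13.0 and Stab1 26.0 ± 4.44 TPM (SD, n = 3 each). TPM levels are therefore to be read within one kind of table, and the difference between the tables was not tested.

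The libraries differed most in Cd36 and Lrp1. For this comparison counts were scaled with TMM factors and put on a log2 CPM scale, in which the range of a gene is the difference between its highest and lowest library. Of the 10 genes, 9 passed the filter on low counts, and Olr1 did not. Cd36 had log2 CPM values of 8.99, 9.98 and 8.43, a range of 1.56 or 2.94-fold between replicates 2 and 3. Its SD was larger than that of 97.3% of the 12744 genes that passed the filter, and its biological coefficient of variation was 35.2%, against a common value of 15.2% for all genes. Lrp1 had 10.97, 11.59 and 10.67, a range of 0.91 or 1.89-fold, and its SD exceeded that of 90.3% of genes.

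The other 7 genes differed by less than 1.5-fold between their highest and lowest library. Their ranges were 0.51 for Marco, 0.42 for Msr1, 0.39 for Cd163, 0.30 for Cd68, 0.26 for both Stab1 and Scarb1 and 0.05 for Colec12. Over 1.5-fold were thus 2 of 9 receptor genes, against 17.9% of all genes, and over 2-fold 1 of 9, against 7.62%. At 9 genes such counts lie near the background share. The median range was 0.39 over the 9 genes and 0.24 over all genes, and 8 of the 9 had an SD above the median of all genes. Colec12, with log2 CPM values of 5.01, 5.06 and 5.06, was the exception, with an SD larger than that of only 4.99% of genes.

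**Figure D2:**
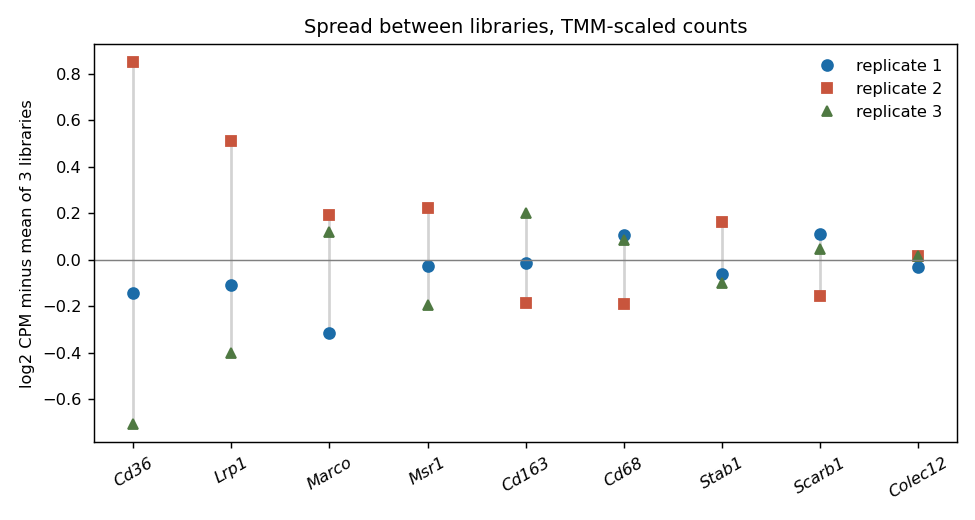
Deviation of each library from the mean of 3 libraries (log2 CPM, TMM-scaled) for the 9 scavenger receptor genes past the count filter, ordered by range; grey lines join the lowest and highest library. Replicate 2 stands 0.85 above the mean for Cd36 and 0.51 above it for Lrp1, and below it for Cd68, Scarb1 and Cd163.

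Replicate 2 was the highest library for 6 of the 9 genes (Cd36, Lrp1, Marco, Msr1, Stab1 and Colec12), against 39.4% of all genes. Cd36 lay 1.28 log2 units and Lrp1 0.77 above the mean of replicates 1 and 3, while Cd68 lay 0.29, Cd163 0.28 and Scarb1 0.23 below it. Left without replicate 2, the range of Cd36 was 0.57 and that of Lrp1 0.30, and none of the 9 genes exceeded 1.5-fold. Transcripts used as markers of nuclear RNA were also higher in that library. The summed level of Malat1, Neat1, Xist and Meg3 was 1262 TPM in replicate 2, against 426 TPM in replicate 1 and 415 TPM in replicate 3. Most of it was Malat1, with 392, 1144 and 374 TPM in replicates 1 to 3. Nuclear RNA as a whole was not measured. By the length of the longest coding transcript, the median deviation of replicate 2 was -0.12 for 1578 genes up to 1500 bases and 0.10 for 252 genes over 10000 bases, the class of Lrp1. For 4474 genes of 3000 to 6000 bases, the class of Cd36, it was 0.01. The part of nuclear RNA and of transcript length in the spread of the receptor genes was not tested.

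The genes whose pattern over the 3 libraries was most like that of Cd36 were Hist2h3c2, Foxm1 and Hist1h3i, among 9925 protein-coding nuclear genes with at least 100 counts on average. The distance between centred log2 CPM values was 0.06, 0.07 and 0.08. Foxm1, a cell cycle transcription factor, had 2.15, 3.20 and 1.68 log2 CPM in replicates 1 to 3, with replicate 2 the highest and replicate 3 the lowest as for Cd36. With 3 libraries such a likeness describes little more than the order and spacing of 3 values.

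Transcript shares were taken from the alignment-free tables as the percent of a gene's TPM on each transcript, and shares in the alignment-based tables are named as such. Cd36 had 6 annotated transcripts, all coding. Cd36-203 carried 42.5, 38.1 and 42.2% of its TPM in replicates 1 to 3, Cd36-206 29.9, 29.0 and 29.5%, and the partial Cd36-205 17.0, 23.4 and 18.2%. Cd36-205 is only 702 bases long and had no reads in the alignment-based tables, where Cd36-203 took 51.4 ± 3.15%, Cd36-206 24.2 ± 1.14% and Cd36-201 18.3 ± 2.66% (SD, n = 3 each), against 6.21 ± 0.75% for Cd36-201 in the alignment-free tables. Apart from Cd36-205, the 5 transcripts have the same coding length of 1416 bases, so they differ in the untranslated exons and the start site.

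By start, the Cd36 transcripts fall into 3 regions. The distal region (chr5:17888747-17888801, minus strand) lies 53.0 kb upstream of the proximal one (chr5:17835696-17835717), with a middle region between them. Distal starts took 59.5, 61.6 and 60.3% of Cd36 TPM, proximal starts 37.0, 34.8 and 35.3%, and the middle region 3.47, 3.66 and 4.37%. The distal sum holds Cd36-203 and the partial Cd36-205. Cd36-203 alone averaged 40.9%, against 35.7% for the proximal starts. The 3 libraries differed by at most a few percentage points, while the alignment-free level of Cd36 was 55.3, 72.9 and 23.9 TPM. In the alignment-based tables the distal share was 51.4 ± 3.15% and the proximal share 42.5 ± 3.72% (SD, n = 3). The distal region thus led in both, by a smaller margin in the alignment-based tables, where replicate 1 had 47.8 against 46.7%.

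Msr1 was divided between its type I and type II transcripts. Msr1-202, the type II form, carried 50.2, 44.9 and 47.0% of Msr1 TPM, and Msr1-201, the form with the cysteine-rich exons printed above, 40.7, 40.5 and 41.6%. Of the sum of these 2, type I made up 44.8, 47.4 and 46.9%. The alignment-based tables gave type I 30.8, 34.8 and 36.3% of that sum, so type II was the larger in every library and table, by a margin that depended on the quantification.

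Scarb1 was mostly SR-BI. Scarb1-201 carried 86.6, 80.8 and 86.6% of Scarb1 TPM and Scarb1-202, the form with the alternative tail, 10.1, 10.4 and 12.1%. Of the sum of both, SR-BII made up 10.4, 11.4 and 12.2%, and 13.1, 13.7 and 13.6% in the alignment-based tables. The 3 libraries and both quantifications thus stayed within a few percentage points of each other.

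**Figure D3:**
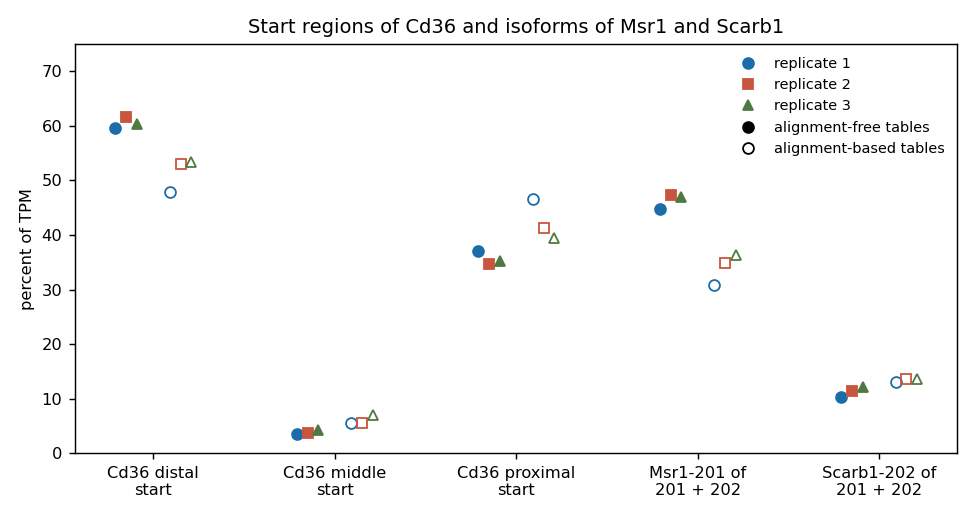
Percent of TPM by start region for Cd36, of Msr1-201 (type I) within Msr1-201 plus Msr1-202, and of Scarb1-202 (SR-BII) within Scarb1-201 plus Scarb1-202, per library; filled symbols are alignment-free and open symbols alignment-based tables. The type I share of Msr1 is 44.8 to 47.4% with filled and 30.8 to 36.3% with open symbols, whereas that of SR-BII stays between 10.4 and 13.7%.

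Cd68 and Marco each rested on a single transcript. Cd68-201 had 98.5, 98.3 and 98.9% of Cd68 TPM, and Marco-201 had 100% in all 3 alignment-free libraries, from few counts. Cd163 was divided between the coding transcripts Cd163-201, with 77.9, 49.8 and 97.2%, and Cd163-202, with 17.1, 48.7 and 0%, a division that changed from library to library. Cd163-202 had 156, 313 and 0 estimated counts, and the cause of the change was not tested. For Olr1 the share of Olr1-201 was 28.1, 15.5 and 100%, and its few counts do not resolve its transcripts.

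In Lrp1, Stab1 and Colec12, much of the TPM lay on transcripts that are not annotated as coding the whole receptor. Lrp1-201, the full-length form of 13635 coding bases, carried 70.5, 69.6 and 81.6% of Lrp1 TPM. The short nonsense-mediated decay transcript Lrp1-205 (679 bases) had 16.1, 20.4 and 9.71%, and the retained-intron transcript Lrp1-208 (763 bases) 11.8, 7.74 and 6.85%. By estimated counts, which are not divided by length, Lrp1-201 held 98.7% on average, so a small share of the reads weighs heavily in TPM where a transcript is short. In the alignment-based tables Lrp1-201 took 43.8, 41.9 and 48.0% of Lrp1 TPM and Lrp1-208 37.7, 35.1 and 35.8%, from 3188, 3985 and 1789 expected counts. The alignment-free tables gave Lrp1-208 661, 587 and 228 estimated counts.

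Stab1 had 13 annotated transcripts, 9 of them with a retained intron. The full-length Stab1-201 carried 60.7, 61.5 and 49.1% of TPM, and the retained-intron transcripts together 30.2, 33.5 and 22.9%, of which Stab1-205 (2427 bases) made up 21.2, 18.8 and 15.5% of the gene. The 242-base Stab1-202 went to 22.3% in replicate 3, against 5.75 and 2.19% in replicates 1 and 2, while holding 0.17% of the counts on average. The alignment-based tables divided the gene otherwise, with 30.8, 31.4 and 27.0% on Stab1-201 and 30.9, 26.7 and 32.0% on Stab1-202, which was high in every library there. By counts, retained-intron transcripts had 11.9 ± 0.88% of Stab1 in the alignment-free tables and 17.3 ± 0.71% in the alignment-based tables (SD, n = 3 each). The libraries are of a cytosolic fraction, and whether the reads came from residual nuclear RNA was not tested.

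Colec12 differed from the other 9 genes in that most of its signal lay on a transcript annotated as a nonsense-mediated decay target. Colec12-201 carried 85.3, 85.5 and 88.9% of its TPM, and the coding transcript Colec12-204 14.7, 13.5 and 11.1%. The alignment-based tables gave Colec12-201 87.8 ± 3.14% (SD, n = 3), and by counts its share was 73.3 ± 3.29%. Colec12-201 holds an exon of 74 bases (chr18:9854532-9854605) that Colec12-204 lacks, and its annotated coding part is 1383 bases, against 2226 in Colec12-204. Colec12-204 is 8024 bases long and Colec12-201 3447, so they also differ at their ends, and which of these stretches the reads covered cannot be read from tables of transcript totals.

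**Figure D4:**
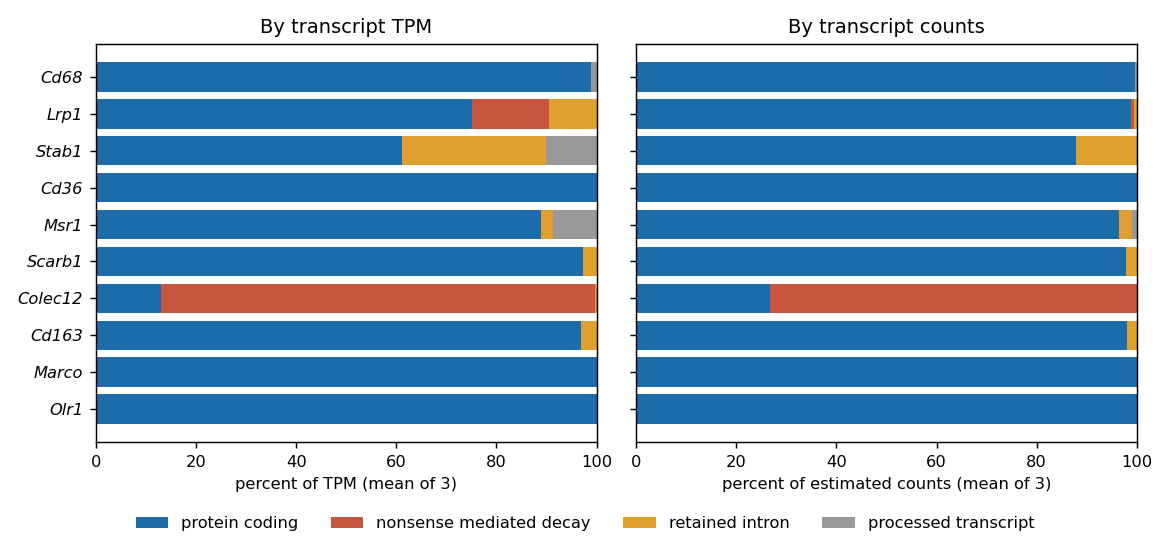
Mean percent of TPM (left) and of estimated counts (right) by annotated transcript type for each scavenger receptor gene over 3 libraries, alignment-free tables. Non-coding transcripts of Lrp1 shrink to 1.19% by counts, those of Stab1 keep 12.1%, and Colec12 stays mostly on its nonsense-mediated decay transcript on both scales.

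Restricted to coding transcripts with at least 50% of the longest coding part of their gene, the levels of the alignment-based tables took another order. Cd68 remained at the top with 706 ± 148 TPM and Cd36 came next with 136 ± 69.4 TPM, followed by Lrp1 with 82.0 ± 22.6, Stab1 with 45.8 ± 6.24, Msr1 with 37.9 ± 4.66 and Scarb1 with 19.3 ± 3.76 TPM (SD, n = 3 each). Colec12 came to 0.55, 0.64 and 0.54 TPM and Cd163 to 0.49, 0.51 and 0.83 TPM, so their ranges overlapped and Colec12 was the higher in 2 of 3 libraries, although its mean was the lower. By mean, 5 of the 10 genes stayed at their rank. Cd36 was above Lrp1 in each of the 3 libraries on this scale, with 101, 216 and 91.6 TPM against 65.8, 108 and 72.3 TPM. In the alignment-free tables Cd36 also ranked second by mean gene TPM, although in replicate 3 Stab1 (24.2 TPM) was slightly above Cd36 (23.9 TPM).

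**Figure D5:**
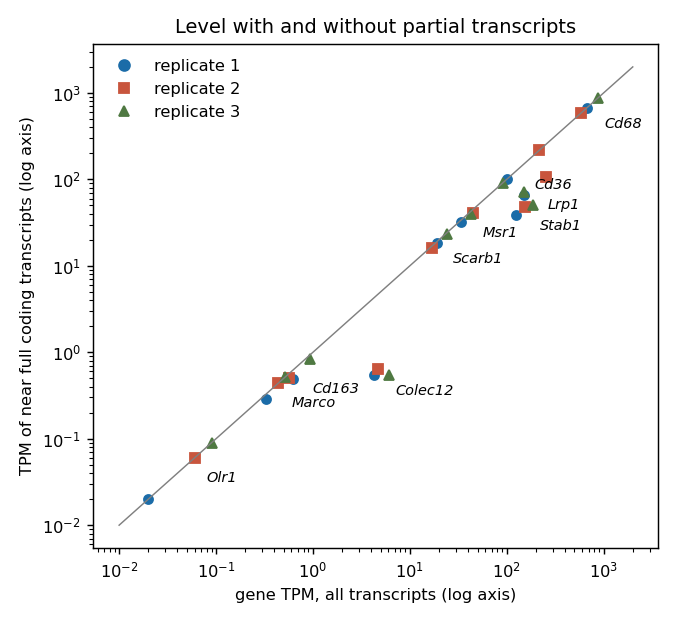
TPM of near-full coding transcripts against gene TPM, both on log axes, for each scavenger receptor gene and library in the alignment-based tables; the line marks equal values. Cd68, Cd36 and Scarb1 lie on or close to the line, Lrp1 and Stab1 below it, and Colec12 farthest below, at 0.54 to 0.64 TPM.

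Other genes of the scavenger receptor system were read from 3 lists. Of 27 further scavenger receptors, 14 reached 1 TPM in every library, against 41.3% of the protein-coding nuclear genes. The other 13 stayed below it in all libraries, 5 of these with 0 counts. The highest were Cd5l, a secreted protein of the cysteine-rich superfamily, with 182, 309 and 202 TPM, Clec7a, the beta-glucan receptor, with 108, 122 and 163 TPM, Mrc1, the mannose receptor, with 103, 125 and 123.3 TPM, and Lrp12 with 70.8, 71.1 and 91.2 TPM. Cd5l was highest in replicate 2, as Cd36 and Lrp1 were, and as 39.4% of all genes past the count filter were. Of the 17 listed genes past that filter, 4 exceeded 1.5-fold between libraries, against 17.9% of all genes. Of the class A relatives, Scara3 and Scara5 were listed at 0 TPM.

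Among 28 partners, ligands and processing factors, 23 reached 1 TPM in every library, against 41.3% of the protein-coding nuclear genes. Apoe, a lipoprotein ligand of Lrp1, had 1659, 2237 and 2289 TPM, the fatty acid carrier Fabp5 had 1020, 912 and 1258 TPM, and the lysosomal glycoprotein Lamp1, related to Cd68, 632, 580.1 and 930 TPM. Lpl, the lipase that releases the fatty acids taken up through Cd36, had 218, 421 and 224 TPM. Over 1.5-fold between libraries were 3 of the 24 genes past the count filter, Lpl included, against 17.9% of all genes. A2m, whose product is cleared by Lrp1, and Gulp1, an adaptor of Lrp1, had 0 counts, which allows up to 0.0565, 0.0688 and 0.0777 CPM in replicates 1 to 3.

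Of 18 transcription factors known to act on these genes, 17 reached 1 TPM in every library, against 41.3% of the protein-coding nuclear genes. Nfe2l2, which drives Cd36 and Marco under oxidative stress, had 81.0, 72.3 and 133 TPM, Spi1 59.7, 54.7 and 87.7 TPM, Irf8 51.8, 54.6 and 68.7 TPM and Cebpa 38.4, 48.5 and 43.4 TPM. Pparg, the nuclear receptor that drives Cd36, had 15.9, 18.0 and 18.2 TPM. On the log2 CPM scale it had 5.79, 5.87 and 5.56, a range of 0.31. Ppara had 0 counts. Over 1.5-fold between libraries were 2 of the 17 past the count filter, against 17.9% of all genes.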

How the data were processed

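For each library the authors deposited gene-level and transcript-level tables from alignments, plus an alignment-free transcript table. Per the file headers, the first 2 hold expected counts, TPM and a percent of gene abundance per transcript in RSEM's columns, and the alignment-free tables hold estimated counts and TPM in kallisto's columns. Per the deposited text files, the assembly is mm10 and the annotation GENCODE M21. Tool versions and strandedness: not given in the sources used here. The deposited percent column was only compared with the shares computed here, from which it differed by at most 1.23 percentage points over 186 values.

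The deposited TPM was used as it stands. The alignment-free transcripts were summed to genes, and shares of transcripts are percents of the gene's TPM. Expected counts were rounded, rows that name no gene (0.1863, 0.1672 and 0.0395% of counts) left out, genes filtered with filterByExpr and scaled with TMM in edgeR 4.0.16 (R 4.3.3, prior count 2), and an intercept-only fit gave the coefficients of variation. The filtering, scaling and fit were tested on simulated gene counts, and the transcript sums and shares were not. Python 3.11.15, numpy 2.4.6, pandas 2.3.3 and matplotlib 3.10.9 did the rest. With a single group no test exists, so values are described by mean, SD and range. Floors of 3 counts cover counting error only, as PCR copies could not be told from separate molecules.

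The 10 genes, all lists and the naming rule were chosen with earlier results of these data known. The rule named all 10 genes, transcripts of 10% or more, the 3 nearest genes to the most variable one and, per list, the 4 highest genes and up to 2 below 1 TPM; Pparg, Cx3cr1, Scara3, Scara5, Atp6v0d2 and the other markers named were added after their values were seen. Alternatives were thresholds of 0.5 and 5 TPM, DESeq2 1.42.0 size factors, library size, no count filter, a prior count of 0.5, the other quantification and each replicate left out; near-full coding transcripts and shares of counts were added after seeing the data.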

Additional observations from a re-analysis of the deposited data

How the results depend on the processing

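The number of receptor genes at the detection level in every library was 7 in the alignment-free tables and with any 1 replicate left out. It was 8 at 0.5 TPM and 6 at 5 TPM. On near-full coding transcripts alone, Colec12 fell below 1 TPM in every library, with 0.55, 0.64 and 0.54 TPM in the alignment-based tables. The same 1 TPM was used in the alignment-free tables, although mean TPM was lower there for 9 of the 10 genes. The number over 1.5-fold between libraries was 2 with TMM, DESeq2 size factors, library size or a prior count of 0.5, 3 without a count filter and 4 with alignment-free counts, where Marco (0.76) and Olr1 (1.99 log2 units) joined Cd36 and Lrp1. Leaving out a replicate gave 0 to 2, with 0 without replicate 2. The cause was not tested. The order by level kept 7 of 10 ranks in the alignment-free tables, 8 without replicate 2 or replicate 3, 10 without replicate 1, and 5 for near-full coding transcripts. Of 100 alternative values of transcript shares, 77 moved by no more than the SD between replicates and 23 by more. Of 60 levels, 38 moved by less than that SD and 22 by more. The 22 were 10 under rescaling to protein-coding nuclear genes, 9 in the alignment-free tables and 3 for near-full coding transcripts. Means without 1 of the 3 replicates cannot move by a full SD of the same replicates, so they counted as unmoved by construction. The 77 and 38 include these means and do not measure stability, and every moved share or level came from another setting. No paired analysis was possible because there is a single group. Depth limits Olr1 and Marco.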
